A study of Homo sapiens with 8 samples.

Results

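The response of MDA-MB-231 cells to low oxygen was compared between libraries with different hairpin labels. For each gene the log2 change from 20% to 1% O2 under the label shSC was subtracted from the same change under the label shCHD4, so that a positive interaction means a more positive response to 1% O2 under shCHD4 and a negative one a more negative response. All 8 of the 8 libraries of the series entered, and 12645 of the 19583 rows of its table had a mean of at least 1 and were tested. MDA-MB-231 is an established human line of triple-negative breast cancer. All libraries hold polyadenylated RNA of cells grown in DMEM with serum. The 4 groups of 2 libraries were shSC at 20% O2, shSC at 1% O2, shCHD4 at 20% O2 and shCHD4 at 1% O2, each for 24 hours. The labels give the shCHD4 libraries as a knockdown of CHD4 and give neither the hairpin sequences nor the number of clones. Whether replicates were grown as separate cultures is not given, so every p-value rests on a spread that may be technical only. In bulk RNA, fewer cells of a type and less RNA per cell cannot be told apart.

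Cells sense oxygen through the hypoxia-inducible factors (HIFs). Their alpha subunits are hydroxylated and degraded when oxygen is plentiful and are stable when it is scarce, and they then bind ACGTG motifs with the partner ARNT and raise genes of glycolysis, angiogenesis, pH control and matrix remodelling. CHD4 is the ATPase of the nucleosome remodelling and deacetylase complex NuRD, and the study asked whether it takes part in HIF-driven transcription. An interaction term asks a narrower question than a list of oxygen-regulated genes, namely whether the size or direction of a response depends on the label.

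CHD4 RNA did not go with the label. Its normalised read count, the deposited value of a gene in a library, was 299 and 298 at 20% O2 and 279.7 and 278 at 1% O2 under shSC, and 293 and 305 and then 299 and 287 under the shCHD4 label. The interaction of CHD4 itself was 0.07 (SE 0.059, limma adjusted p = 0.592). The groups are therefore named by their label throughout, and no difference is described as an effect of lower CHD4. The libraries held 24947627 to 31903585 reads assigned to genes. Over all tested genes the label took 88.6% of the sum of squares, oxygen 7.61%, the interaction 1.41% and the spread within groups 2.38%. The identity of the line fitted its markers, with VIM, CD44, EGFR and AXL at 284.8 or more in every library and the estrogen and progesterone receptor genes ESR1 and PGR at 0.138 or less. SPARC, the fifth marker of the line, was at 0.372 to 0.572 under shSC and 6.08 to 6.56 under the shCHD4 label. Of the 6 leukocyte markers in the table, PTPRC was at 0.636 or less and CD68 at 108 to 122, and their sum was 111 to 123 under shSC and 121 to 125 under the shCHD4 label. Of the 6 endothelial markers, CDH5, VWF and CLDN5 were at 0.207 or less, PECAM1 was at 1.91 to 2.93, and KDR was at 12.4 to 14.9 under shSC and 4.23 to 5.13 under the shCHD4 label. Their sum was 15.6 to 18.1 under shSC and 6.32 to 8.03 under the shCHD4 label, and that of the 7 fibroblast markers 22.1 to 25.4 and 33.2 to 37.6. The 13 luminal and epithelial markers summed to 838 to 1010.4 under shSC and 513 to 562 under the shCHD4 label. Among them the epithelial factor EHF was at 378 to 522 under shSC and 8.05 to 15.5 under the shCHD4 label, and the cadherin CDH1 at 0.331 or less in every library. The keratin KRT8 went against that sum, at 85.9 to 125 under shSC and 212 to 243 under the shCHD4 label. KRT18 was at 211 to 252 and 212 to 257. Of the 8 tested luminal and epithelial markers, 6 were lower and 1 was higher under the shCHD4 label at 20% O2 (limma adjusted p under 0.05). Over all tested genes 38.6% were lower and 37% higher by the same test, or 75.6% in either direction. The part of these differences in the results was not tested.

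The regulatory sequence in front of 4 genes that carry the main patterns is shown first, because their start regions hold the motif of the factor family that their gene list is named for. DDIT4 had the largest positive interaction and CA9 the largest negative one by limma, though the call of CA9 rests on few reads and ended with edgeR and DESeq2. Both genes hold 1 copy of the HIF core motif ACGTG, marked by capitals (CACGT where it lies on the other strand). IFIT1 and IFIT3 are interferon-stimulated genes that fell at 1% O2 under shSC, and both hold 2 copies of the core of the interferon-stimulated response element (TTTC, any 2 bases, TTTC), again in capitals. Each run is the 250 bases upstream of the start site on the + strand, from RefSeq on GRCh38.p14, a later build than the hg19 named in the submitters' processing notes.
DDIT4, chr10:72273674-72273923: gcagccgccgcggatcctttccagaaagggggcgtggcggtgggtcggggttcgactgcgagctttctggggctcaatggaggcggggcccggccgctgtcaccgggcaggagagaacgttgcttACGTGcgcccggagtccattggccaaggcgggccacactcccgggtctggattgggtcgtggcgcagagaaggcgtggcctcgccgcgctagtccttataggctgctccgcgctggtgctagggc
CA9, chr9:35673678-35673927: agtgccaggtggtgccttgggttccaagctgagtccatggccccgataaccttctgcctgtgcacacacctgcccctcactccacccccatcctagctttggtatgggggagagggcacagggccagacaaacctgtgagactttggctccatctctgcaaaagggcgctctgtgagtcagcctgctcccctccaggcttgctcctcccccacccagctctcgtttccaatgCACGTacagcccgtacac
IFIT1, chr10:89392373-89392622: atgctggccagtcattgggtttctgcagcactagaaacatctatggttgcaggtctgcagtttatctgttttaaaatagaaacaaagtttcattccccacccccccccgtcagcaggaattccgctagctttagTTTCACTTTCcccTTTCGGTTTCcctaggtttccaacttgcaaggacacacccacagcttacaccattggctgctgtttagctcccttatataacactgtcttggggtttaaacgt
IFIT3, chr10:89332279-89332528: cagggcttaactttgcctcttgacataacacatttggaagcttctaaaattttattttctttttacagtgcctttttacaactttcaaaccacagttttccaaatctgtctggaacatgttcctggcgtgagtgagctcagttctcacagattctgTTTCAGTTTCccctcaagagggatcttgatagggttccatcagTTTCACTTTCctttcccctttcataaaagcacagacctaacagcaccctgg

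The motif begins 125 bases before the start site in DDIT4 and 18 bases before it in CA9. In IFIT1 the copies begin 116 and 103 bases before the start, and in IFIT3 94 and 51 bases before it. Both strands were searched in the 250 bases upstream of 10049 tested genes that matched a RefSeq entry (79.5% of those tested). ACGTG was found in 23.3% of them, in 32 of 51 HIF target genes (62.7%), in 17.9% of genes with a positive interaction and in 23% of genes with a negative one. Within the HIF target list it was found in 2 of 5 members with a positive interaction (40%) and 6 of 11 with a negative one (54.5%). The interferon element core was found in 2.59% of all these genes and in 21 of 29 type I interferon-stimulated genes (72.4%). Of the 10 members of that list whose interaction passed, 7 had a promoter entry and all 7 held the core. A match describes letters and is no evidence of binding.

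The oxygen response was shared in outline and differed in detail. At an adjusted p of 0.05 (limma, Benjamini-Hochberg), 551 of 12645 genes, or 4.36%, had an interaction, 280 of them positive (2.21%) and 271 negative (2.14%). At an unadjusted p of 0.05, 2301 genes passed. The median interaction of all tested genes was 0.0032, with quartiles of -0.097 and 0.112. The differences were mostly modest, since 25 of the 551 reached 1 in absolute log2 size (0.198% of tested genes; 15 positive, or 0.119%, and 10 negative, or 0.0791%) and 3 reached 2 (0.0237%). For all 551 the responses of the labels, taken over all pairs of libraries, did not overlap, which was so for 32% of tested genes. The test that chose the 551 used the same values, which made this likely in advance, so it adds no support. The split into positive and negative calls depended on scaling: with every library scaled to the same total, 583 genes passed and 67.4% of them were positive, against 50.8% with the deposited factors. The number of calls also rested on single libraries. It was 401 without replicate 2 of shSC at 20% O2, 317 and 515 without replicates 1 and 2 of shSC at 1% O2, 322 and 360 without those of shCHD4 at 20% O2, and 251 and 245 without those of shCHD4 at 1% O2. Without replicate 1 of shSC at 20% O2 it was 994. In all 8 of these fits 174 of the 551 genes passed, 97 positive and 77 negative, and 167 of these also passed edgeR and DESeq2 on the recovered reads.

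**Figure D1:**
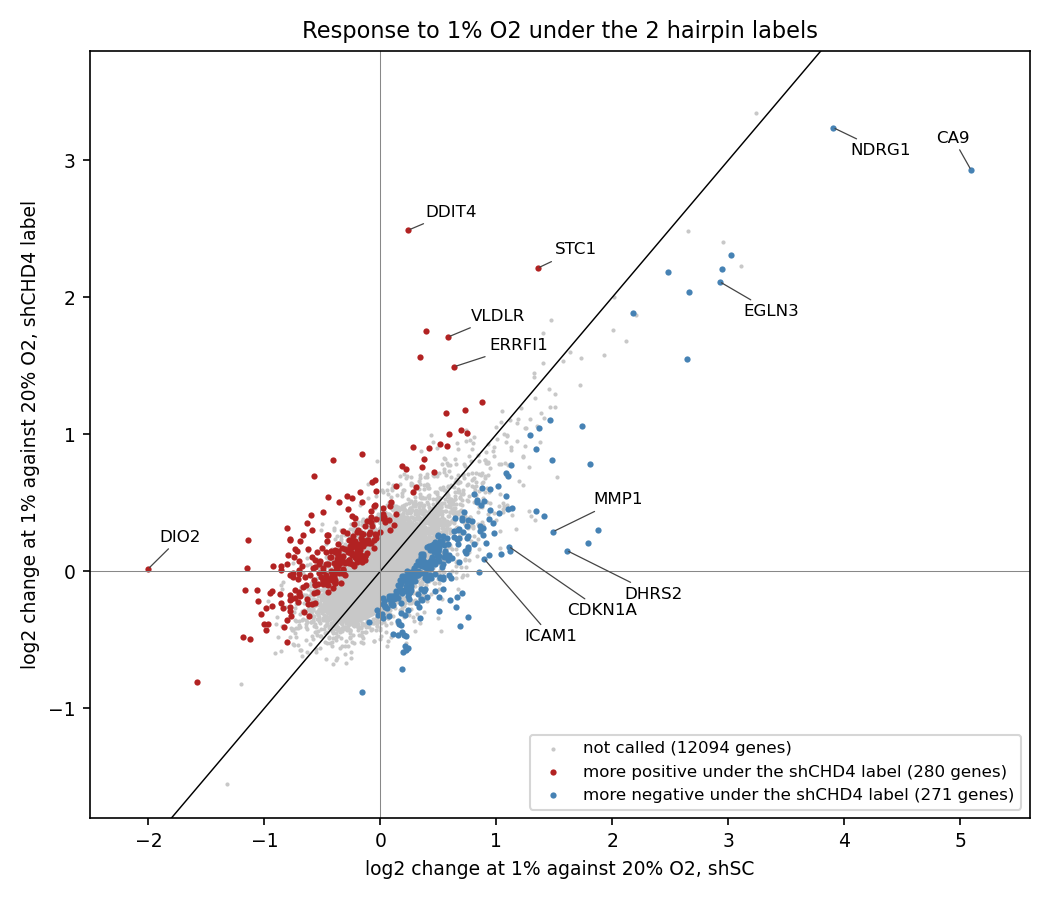
Log2 change from 20% to 1% O2 of each of 12645 tested genes under shSC (horizontal) and under the shCHD4 label (vertical), with the diagonal of equal response. The 280 genes with a positive interaction lie above the diagonal and the 271 with a negative one below it, with DDIT4 and DIO2 far above it and CA9, DHRS2 and MMP1 far below.

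Most differences came from responses that passed the test under shSC and were smaller, or did not pass, under the shCHD4 label. At 1% O2, 4456 genes passed under shSC (35.2%; 2197 up and 2259 down) and 2903 under the shCHD4 label (23%; 1552 up and 1351 down). Among the 551 genes with an interaction, 153 fell under shSC without passing under shCHD4, and 144 rose under shSC without passing under shCHD4. Another 77 rose under both labels and rose more under shSC, and 23 fell under both and fell more under shSC. In the other direction, 53 rose and 38 fell under the shCHD4 label without passing under shSC, and 21 rose under both and rose more under shCHD4. Responses of opposite sign, each past the threshold, were found in 40 genes. In 2 genes, FIGNL1 and EFNB1, neither response passed. With 1 library left out at a time, FIGNL1 kept its call only without replicate 1 of shSC at 20% O2, with adjusted p of 0.0697 to 0.18 in the other fits, and EFNB1 only without that library or replicate 2 of shCHD4 at 20% O2, with 0.0653 to 0.211 in the others. The absolute response was larger under shSC in 416 of the 551 genes (75.5%) and larger under the shCHD4 label in 135. That share was not taken over all tested genes, where the SD of the log2 response was 0.289 under shSC and 0.229 under the shCHD4 label.

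**Figure D2:**
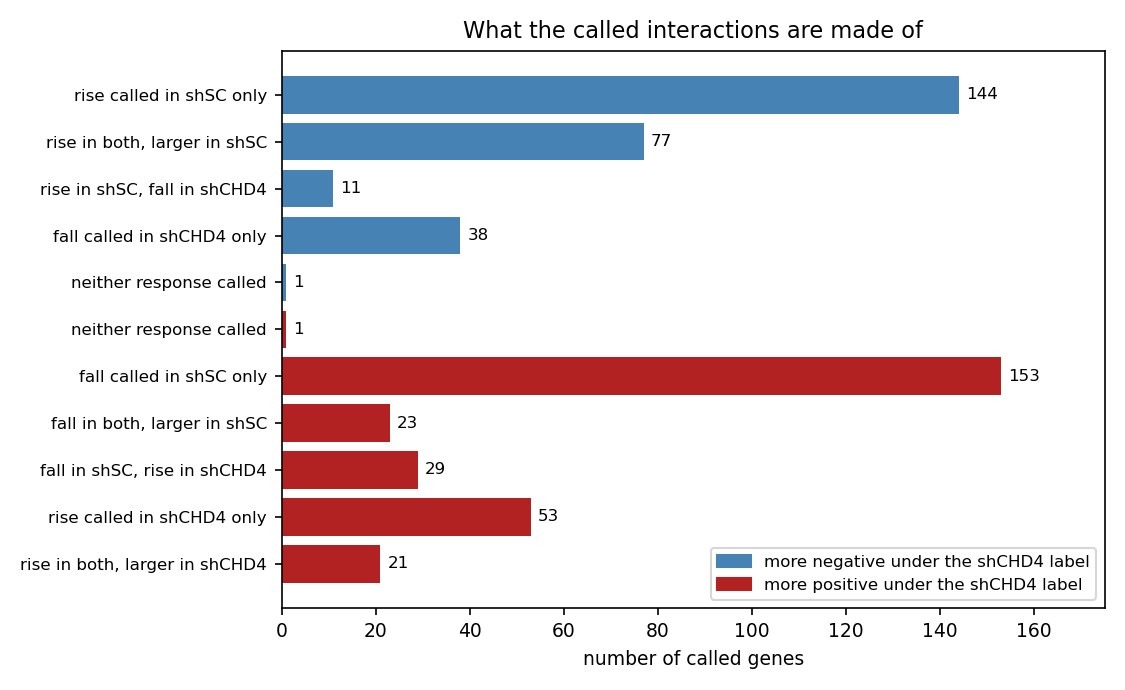
Number of the 551 genes with an interaction in each pattern of response to 1% O2, with bars from 0 and the count beside each bar. The longest bars are the 153 genes that fell and the 144 that rose under shSC alone.

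DDIT4 differed most. It encodes REDD1, a stress-induced inhibitor of mTORC1 and a HIF and ATF4 target. Its normalised read counts were 604 and 567 at 20% O2 and 667 and 716 at 1% O2 under shSC, and 39.0 and 36.6 and then 216 and 213 under the shCHD4 label. The shSC libraries were high at both oxygen levels and the shCHD4 libraries rose from a low level, with no overlap between any of the 4 groups. The change at 1% O2 was 1.18-fold under shSC (adjusted p = 0.00097) and 5.62-fold under the shCHD4 label (adjusted p = 4.85e-17), on the scale of log2(value + 0.5) used for all folds here. The interaction was 2.25 (SE 0.069, 95% interval 2.11 to 2.40, adjusted p = 2.67e-13). At 1% O2 the shCHD4 libraries still held fewer DDIT4 reads than the shSC libraries at 20% O2.

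ERRFI1 and VLDLR followed the same course in folds, though not in differences of normalised read counts. ERRFI1 encodes MIG6, a feedback inhibitor of the EGF receptor. Its counts were 2694 and 2730.0 at 20% O2 and 4352 and 4099 at 1% O2 under shSC, and 217 and 214 and then 606 and 608 under the shCHD4 label, and it rose 1.56-fold and 2.82-fold (interaction 0.85, SE 0.059, adjusted p = 1.59e-07). VLDLR, the very-low-density lipoprotein receptor and a HIF target, was at 48.9 and 49.5 at 20% O2 and 72.4 and 75.6 at 1% O2 under shSC, and 10.4 and 9.42 and then 34.3 and 32.6 under the shCHD4 label. Both genes were lower in every shCHD4 library than in every shSC library, and rose by a larger fold from that lower level (interaction 1.13, SE 0.091, adjusted p = 8.95e-07 for VLDLR). In normalised read counts VLDLR gained 24.8 under shSC and 23.6 under the shCHD4 label, and ERRFI1 also gained less under the shCHD4 label. NFIL3, a basic leucine zipper repressor of transcription, also rose under both labels, 1.16-fold under shSC and 1.68-fold under the shCHD4 label (interaction 0.53, SE 0.083, adjusted p = 0.00101).

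Interactions of ATF4 pathway genes went in 1 direction where they passed. ATF4 is the transcription factor of the integrated stress response, which raises amino acid synthesis and transport. Of 35 tested members of the ATF4 list, 9 had a positive interaction and none a negative one (25.7%, against 4.36% of all tested genes), and the list's median interaction was 0.05. All 35 were lower under the shCHD4 label at 20% O2 (38.6% of all tested genes were), by a median log2 difference of -1.69, so the folds start from unequal levels. Of the members with a positive interaction, DDIT4, VLDLR and VEGFA are counted in the HIF target list below as well. The 0 negative calls held with limma, edgeR and DESeq2, and 17 members had an unadjusted p under 0.05 in either direction. CHAC1, which degrades glutathione and is a sensitive ATF4 target, was at 87.1 and 81.3 at 20% O2 and 72.6 and 78.3 at 1% O2 under shSC, and 5.54 and 4.90 and then 10.2 and 9.48 under the shCHD4 label. It was lower in each shCHD4 library and rose there alone (1.81-fold, adjusted p = 1.75e-07), while the shSC change of -0.16 did not pass (adjusted p = 0.118; interaction 1.02, SE 0.11, adjusted p = 1.48e-05). SLC7A5, a large neutral amino acid transporter and the list's most abundant member by reads, rose under both labels and its interaction of 0.21 lay beside the threshold (adjusted p = 0.0508). It passed with a mean of at least 4 (0.0462), equal library totals (0.0247), quantile normalization (0.00879), edgeR (0.0439), DESeq2 (0.0312) and without replicate 2 of shSC at 20% O2 (0.0394). DDIT4, VLDLR, VEGFA, CHAC1 and SLC38A2, a glutamine transporter named after its values were seen, passed in all 8 fits that left out 1 library. The count of positive members was 6 without either shCHD4 library at 1% O2 or without replicate 2 of shSC at 1% O2.

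**Figure D3:**
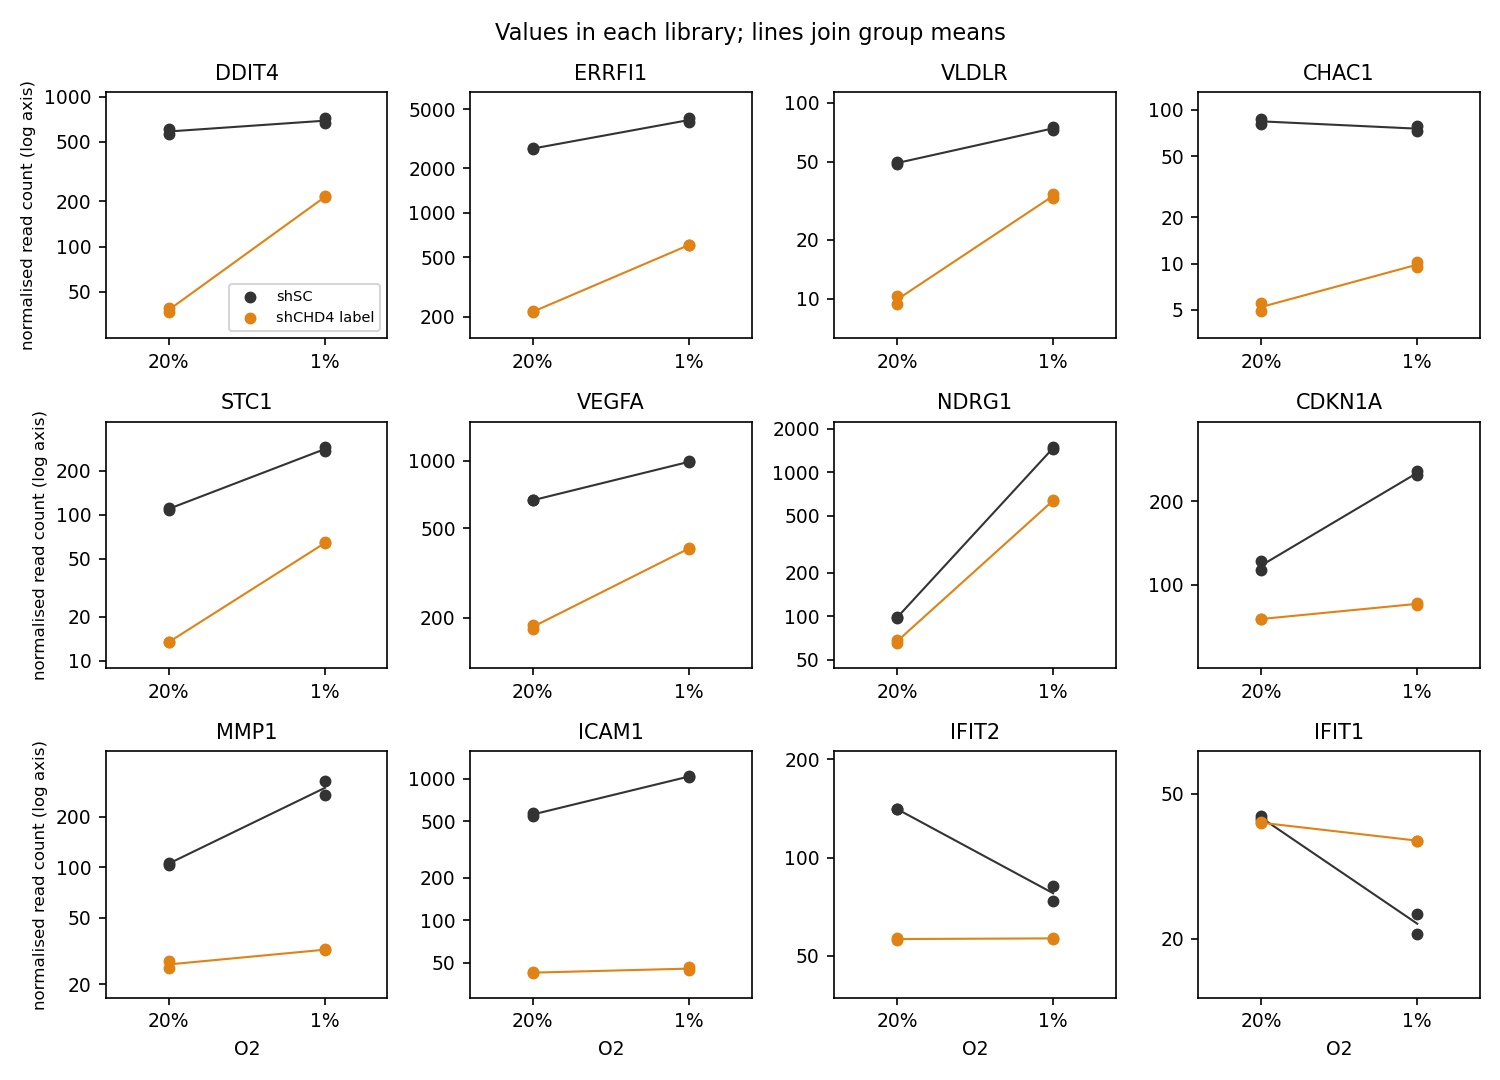
Normalised read count (log axis) of 12 genes in each of the 8 libraries at 20% and 1% O2, dark for shSC and orange for the shCHD4 label, with lines joining the group means of 2 libraries. DDIT4, ERRFI1, VLDLR and CHAC1 climb more steeply under the shCHD4 label, CDKN1A, MMP1 and ICAM1 climb under shSC, and IFIT2 and IFIT1 drop under shSC.

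The HIF programme was induced under both labels, and the labels differed in which members rose more. Of 61 tested HIF target genes 58 rose at 1% O2 under shSC (17.4% of all tested genes did) and 59 under the shCHD4 label (12.3% did), none fell, and the median log2 responses were 0.97 and 1.05. The interaction passed in 22 of the 61 (36.1%, against 4.36% of all tested genes), 8 positive and 14 negative, and its median over the list was -0.12 against 0.0032. All 8 positive members passed in every fit without 1 library. Of the 14 negative ones 6 did, and their number fell to 6 and 7 without replicates 1 and 2 of shCHD4 at 1% O2, to 8 without replicate 1 of shCHD4 at 20% O2 and to 9 without replicate 2 of shSC at 1% O2. The members with a positive interaction were secreted factors, a receptor, a glucose transporter and regulators, and were DDIT4, VLDLR, STC1, VEGFA, ADM, SLC2A3, CITED2 and PFKFB3. Those with a negative interaction included NDRG1, EGLN3 and CA9.

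**Figure D4:**
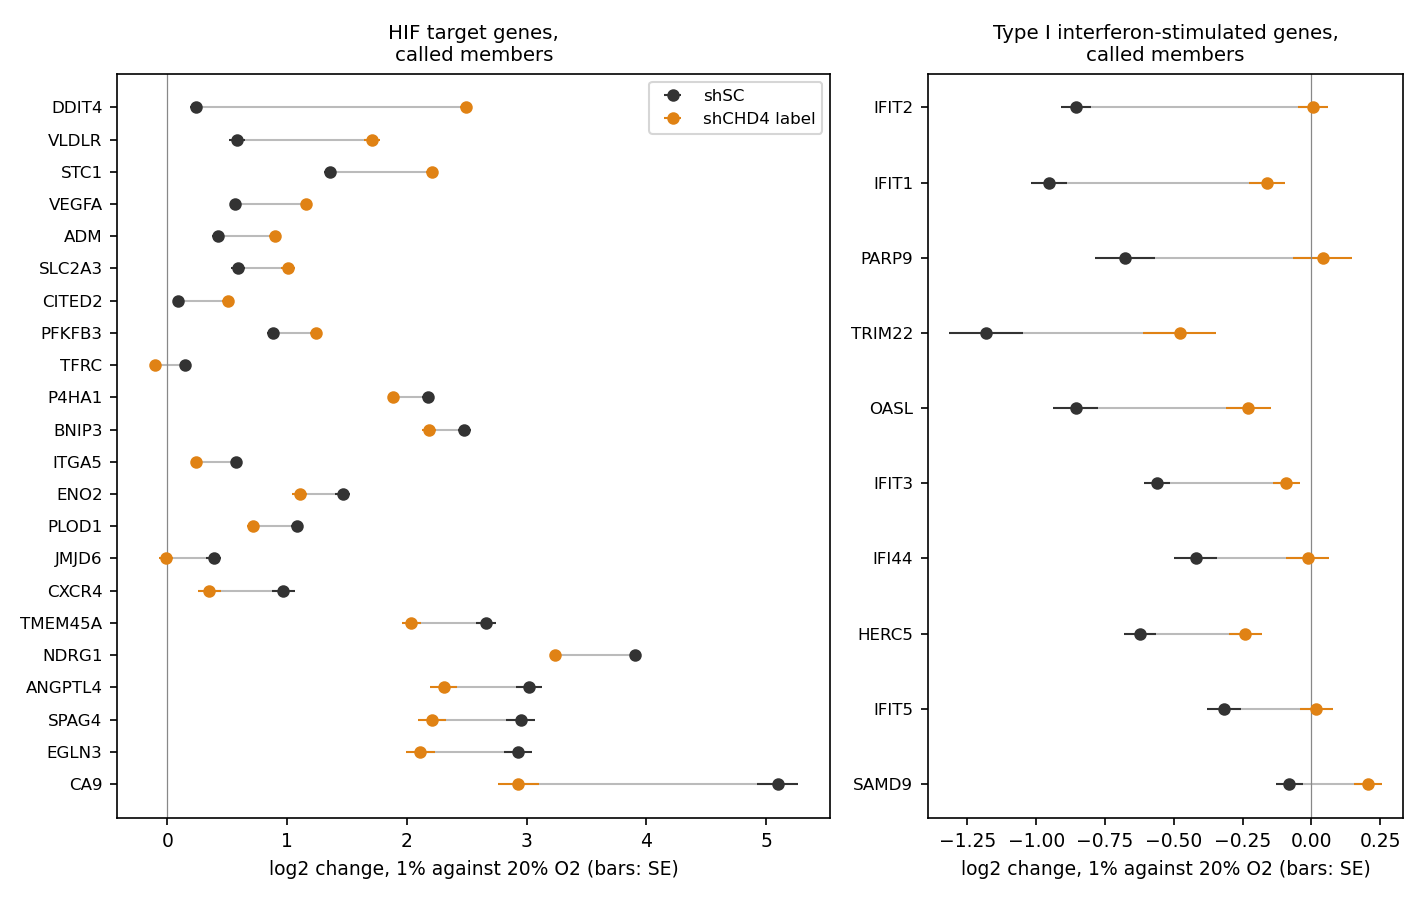
Log2 change from 20% to 1% O2 under shSC (dark) and the shCHD4 label (orange) for the 22 HIF target genes (left) and the 10 type I interferon-stimulated genes (right) with an interaction, with bars of 1 SE from the fit. HIF targets from DDIT4 to PFKFB3 lie further right under the shCHD4 label and the other 14 further right under shSC, while the interferon genes lie further left under shSC.

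Among secreted factors, STC1, VEGFA and ADM belong to the HIF target list, and IGFBP3 and PGF do not. STC1, which encodes the glycoprotein stanniocalcin-1, was at 108 and 112 at 20% O2 and 289 and 275 at 1% O2 under shSC. Under the shCHD4 label it was at 13.4 and 13.5 and then 64.6 and 63.6. It rose 2.56-fold under shSC and 4.64-fold under the shCHD4 label (interaction 0.86, SE 0.071, adjusted p = 1.02e-06), and no shCHD4 library reached the lowest shSC library. VEGFA, the main angiogenic growth factor, was at 666 and 666 at 20% O2 and 983 and 993 at 1% O2 under shSC, and 185 and 179 and then 409.8 and 404 under the shCHD4 label and rose 1.48-fold and 2.23-fold (interaction 0.59, SE 0.056, adjusted p = 4.28e-06). ADM encodes the vasodilator peptide adrenomedullin. Its counts were 82.6 and 79.3 at 20% O2 and 109 and 109 at 1% O2 under shSC, and 86.0 and 83.2 and then 156 and 160.3 under the shCHD4 label, so that the labels lay close together at 20% O2 and apart at 1% O2 (interaction 0.48, SE 0.066, adjusted p = 0.000294). IGFBP3, a binding protein of insulin-like growth factors, went the other way, at 88.9 and 89.4 at 20% O2 and 298 and 299.6 at 1% O2 under shSC, and 15.7 and 15.8 and then 32.9 and 33.8 under the shCHD4 label (interaction -0.68, SE 0.071, adjusted p = 1.15e-05). PGF, the placental growth factor, rose under shSC and fell under the shCHD4 label (interaction -0.80, SE 0.12, adjusted p = 0.000486). Over the 20 tested angiogenic and secreted factors, 4 interactions were positive and 6 negative (50%, against 4.36% of all tested genes), with a median of -0.05. Not all of these passed in every fit without 1 library. STC1, VEGFA and ADM are counted in both lists.

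Regulators and enzymes of the hypoxic response were divided as well. CITED2, which competes with HIF for the coactivators CBP and p300, was at 199.98 and 212 at 20% O2 and 221 and 218 at 1% O2 under shSC, and 133 and 138 and then 196 and 189 under the shCHD4 label, and rose under the shCHD4 label alone (interaction 0.41, SE 0.064, adjusted p = 0.000832). PFKFB3, which makes the activator of glycolytic phosphofructokinase, rose 1.84-fold and 2.36-fold (interaction 0.36, SE 0.067, adjusted p = 0.00456), and SLC2A3, the glucose transporter GLUT3, rose 1.51-fold and 2.01-fold (interaction 0.42, SE 0.082, adjusted p = 0.00622). Without a trend of variance on level these adjusted p were 0.0524 for CITED2, 0.0773 for PFKFB3 and 0.0621 for SLC2A3. GAPDH, the glycolytic enzyme of the highest count in the list, rose under both labels and its interaction of -0.13 did not pass (adjusted p = 0.282). Of 25 tested glycolysis genes 23 rose under each label, where 17.4% of all tested genes rose under shSC and 12.3% under the shCHD4 label. In this list 3 had an interaction (12%, against 4.36% of all tested genes), 2 positive and 1 negative, with a median of -0.04. The 2 positive ones, PFKFB3 and SLC2A3, are counted in the HIF target list as well. The negative call ended in 5 of the 8 fits without 1 library, and 3 were negative without replicate 1 of shSC at either O2 level.

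NDRG1, a stress-responsive gene used as a marker of hypoxia, rose strongly under both labels and still differed. It was at 97.2 and 98.2 at 20% O2 and 1449 and 1491 at 1% O2 under shSC, and 68.3 and 65.6 and then 631 and 640.4 under the shCHD4 label. All 4 groups were apart, and the rise was 15-fold under shSC and 9.44-fold under the shCHD4 label (interaction -0.67, SE 0.059, adjusted p = 1.87e-06). EGLN3, a prolyl hydroxylase that marks HIF alpha subunits for degradation and is itself a HIF target, was at 2.07 and 1.71 at 20% O2 and 18.1 and 17.2 at 1% O2 under shSC, and 4.98 and 3.79 and then 20.2 and 20.8 under the shCHD4 label. It rose 7.60-fold from a lower level under shSC and 4.33-fold from a higher level under the shCHD4 label, to values of the same order (interaction -0.81, SE 0.17, adjusted p = 0.00797). The call of EGLN3 ended without the filter on low values (adjusted p = 0.107) and without the variance trend (0.0716). PLOD1, a lysyl hydroxylase of collagen, rose 2.12-fold under shSC (96.8 and 90.2 to 191 and 205) and rose less under the shCHD4 label (86.8 and 84.4 to 143 and 139; interaction -0.37, SE 0.071, adjusted p = 0.00595), and its adjusted p was 0.059 without the filter and 0.0968 without the trend. Of 16 tested genes of collagen modification, 2 had a negative interaction (12.5%, against 2.14% of all tested genes). Of the 16 values 1 was above 0 (median -0.13), as were 6438 of the 12645 over all tested genes. The 2 calls became 1 without either shCHD4 library at 1% O2, replicate 1 of shCHD4 at 20% O2 or replicate 2 of shSC at 1% O2, 4 without replicate 2 of shSC at 20% O2 and 4 with DESeq2.

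CA9 had the largest negative interaction on this scale, and it rests on few reads. CA9 is the carbonic anhydrase that controls pH outside hypoxic cells. Its values were 0.207 and 0.483 at 20% O2 and 27.0 and 29.0 at 1% O2 under shSC, and 0.150 and 0.0345 and then 3.54 and 4.49 under the shCHD4 label. The 20% O2 groups held 18 reads under shSC and 5 under the shCHD4 label in all, and the 1% O2 groups 1617 and 230. The fitted interaction was -2.16 (SE 0.24, adjusted p = 2.63e-05). As a ratio of group means with no added constant, chosen after the data were seen, CA9 rose 81.1-fold under shSC and 43.6-fold under the shCHD4 label, an interaction of -0.90. On the recovered reads edgeR gave -0.88 with an adjusted p of 0.665 and DESeq2 -0.84 with 0.736, so the call ended with both count tests. What did not depend on the scale was the level at 1% O2, where both shSC libraries were far above both shCHD4 libraries.

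Inflammatory and NF-kB genes differed in both directions. NF-kB is the transcription factor family that drives cytokines and adhesion molecules, and IL-1, IL-6 and IL-8 are its products. Of 29 tested members, 11 had an interaction (37.9%, against 4.36%), 4 positive and 7 negative, with a median of -0.20. All 29 were lower under the shCHD4 label at 20% O2 (38.6% of all tested genes were), by a median log2 difference of -3.70. On the recovered reads edgeR and DESeq2 each called 2 positive and 5 negative members. The 4 positive calls became 2 without replicate 1 of shCHD4 at 1% O2, replicate 2 of shCHD4 at 20% O2 or replicate 2 of shSC at either level, and the 7 negative ones 4 without replicate 1 of shSC at 1% O2. ICAM1, the adhesion molecule that binds leukocyte integrins, was at 574 and 542 at 20% O2 and 1034 and 1039 at 1% O2 under shSC, and 42.7 and 42.3 and then 46.4 and 44.3 under the shCHD4 label. It rose 1.86-fold under shSC, while its change under the shCHD4 label of 0.09 did not pass (adjusted p = 0.141; interaction -0.80, SE 0.063, adjusted p = 7.52e-07). MMP1, the interstitial collagenase, rose 2.81-fold under shSC and 1.22-fold under the shCHD4 label, at 103 and 106 at 20% O2 and 326 and 268 at 1% O2 under shSC, and 27.7 and 24.9 and then 31.9 and 32.5 under the shCHD4 label (interaction -1.20, SE 0.10, adjusted p = 1.4e-06). RELB and NFKB2, subunits of the noncanonical NF-kB pathway named after their values were seen, rose under shSC and fell under the shCHD4 label, with interactions of -0.54 (adjusted p = 0.000662) and -0.36 (adjusted p = 0.0037).

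PTGES and IL11 had positive interactions in the same list. PTGES, the prostaglandin E synthase, fell under both labels, from 154 and 143 to 48.0 and 50.5 under shSC and from 104 and 102 to 56.9 and 60.4 under the shCHD4 label (interaction 0.78, SE 0.076, adjusted p = 5.52e-06). IL11, a cytokine of the IL-6 family, fell from 203 and 205 to 111 and 95 and from 45.4 and 42.3 to 37.0 and 35.4 (interaction 0.71, SE 0.091, adjusted p = 0.000104). In both genes the fall was steeper under shSC. IL8, the chemokine of the highest read count in the list, was at 3536 and 3590.4 at 20% O2 and 3233 and 2978 at 1% O2 under shSC, and 34.6 and 33.5 and then 24.4 and 27.0 under the shCHD4 label, and its interaction of -0.20 did not pass (adjusted p = 0.127). Its direction turned with quantile normalization, to 0.47 with an adjusted p of 0.000467.

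Matrix genes with an interaction all rose less under the shCHD4 label. Of 30 tested mesenchymal and matrix genes, 7 were negative (23.3%, against 2.14% of all tested genes) and none positive, with a median of -0.05. Limma, edgeR and DESeq2 each made 0 positive calls, and 11 members had an unadjusted p under 0.05 in either direction. ITGA5 is counted in the HIF target list as well. LAMB3, which encodes a laminin chain of the basement membrane, was at 669.8 and 639 at 20% O2 and 1190.3 and 1181 at 1% O2 under shSC, and 689 and 693 and then 872 and 868 under the shCHD4 label (interaction -0.53, SE 0.057, adjusted p = 1.79e-05). VIM, the intermediate filament vimentin, rose 1.60-fold and 1.24-fold (interaction -0.37, SE 0.066, adjusted p = 0.00309), and ITGA5, the integrin subunit of the fibronectin receptor, 1.49-fold and 1.18-fold (interaction -0.34, SE 0.060, adjusted p = 0.00316). These 3 passed in every fit without 1 library, while without the variance trend the adjusted p was 0.0625 for VIM and 0.0716 for ITGA5, and for VIM it was 0.156 without the filter. The count of 7 fell to 4 without either shCHD4 library at 1% O2, replicate 2 of shCHD4 at 20% O2, replicate 2 of shSC at 20% O2 or replicate 2 of shSC at 1% O2.

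CDKN1A, which encodes the cyclin-dependent kinase inhibitor p21, was at 121 and 113 at 20% O2 and 249 and 259 at 1% O2 under shSC, and 75.2 and 75.5 and then 84.6 and 86.3 under the shCHD4 label. It rose 2.16-fold under shSC and 1.13-fold under the shCHD4 label, with no overlap between groups (interaction -0.93, SE 0.068, adjusted p = 2.72e-07). PMAIP1, the p53-induced BH3-only protein NOXA, went from 211 and 241 to 186 and 189 under shSC and from 103 and 99.9 to 113 and 119 under the shCHD4 label, a fall and a rise that both passed (interaction 0.45, SE 0.078, adjusted p = 0.00237), with an adjusted p of 0.0589 without the filter and 0.0876 without the variance trend. Of 23 tested apoptosis regulators and p53 targets 2 were positive and 2 negative (17.4%, against 4.36% of all tested genes). The positive count was 1 in 7 of the 8 fits without 1 library and 4 without replicate 1 of shSC at 20% O2, and the negative count was 1 in 5 of them. CDKN1A and PMAIP1 were the members to pass in all 8.

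Interferon-stimulated genes with an interaction were all positive, and most members of the list fell at 1% O2 under shSC. Type I interferons act through the response element shown above and raise antiviral proteins, of which the IFIT family binds foreign RNA. Of 37 tested members 24 fell and 3 rose under shSC, where 17.9% of all tested genes fell, and 9 fell and 4 rose under the shCHD4 label, where 10.7% did. The interaction was positive in 10 and negative in none (27%, against 2.21% of all tested genes for positive calls), with a median of 0.19. Limma, edgeR and DESeq2 each made 0 negative calls, and 17 members had an unadjusted p under 0.05 in either direction. IFIT1 was at 42.5 and 43.5 at 20% O2 and 23.3 and 20.6 at 1% O2 under shSC, and 41.7 and 41.5 and then 37.1 and 37.2 under the shCHD4 label. The labels lay close together at 20% O2, and the shSC libraries at 1% O2 stood below all others (interaction 0.79, SE 0.092, adjusted p = 3.48e-05). IFIT2 was at 141 and 141 at 20% O2 and 81.8 and 73.8 at 1% O2 under shSC, and 56.8 and 55.8 and then 56.4 and 56.9 under the shCHD4 label, higher in each shSC library and with overlapping oxygen groups under the shCHD4 label (interaction 0.86, SE 0.076, adjusted p = 1.87e-06). IFIT3 was at 136 and 137 at 20% O2 and 96.2 and 88.5 at 1% O2 under shSC, and 125 and 122 and then 117 and 115 under the shCHD4 label (interaction 0.47, SE 0.068, adjusted p = 0.000486). OASL, an antiviral relative of the oligoadenylate synthetases, fell from 30.2 and 31.6 to 18.4 and 15.4 under shSC and was at 19.1 and 18.4 and then 15.7 and 16.2 under the shCHD4 label (interaction 0.63, SE 0.12, adjusted p = 0.00436). The adjusted p of OASL was 0.0635 without the filter and 0.0582 without the variance trend.

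These 4 genes passed in every fit without 1 library, and the count of 10 was 4 without replicate 2 of shCHD4 at 1% O2 or replicate 1 of shCHD4 at 20% O2, and 6 without replicate 2 of shCHD4 at 20% O2, either shSC library at 1% O2 or replicate 2 of shSC at 20% O2. DESeq2 called 6 members and edgeR 10. LGALS3BP, a secreted glycoprotein and the most abundant member by reads, did not differ past the threshold (interaction -0.10, adjusted p = 0.445). In the related list of interferon gamma and antigen presentation genes, 4 of 33 had a positive interaction (12.1%, against 2.21% of all tested genes). There edgeR called 2 and DESeq2 1. The count was 1 without replicate 1 of shCHD4 at 20% O2 or either shCHD4 library at 1% O2, and 2 without replicate 1 of shSC at 1% O2 or replicate 2 of shSC at 20% O2. The adjusted p by edgeR was 0.617 for HLA-DRA, a class II chain, and 0.397 for HLA-DMB, the partner of HLA-DMA. HLA-DMA, which loads peptides onto class II molecules, passed in every fit without 1 library and was at 10.3 and 9.95 at 20% O2 and 5.79 and 6.35 at 1% O2 under shSC, and 3.93 and 4.0 and then 4.74 and 4.67 under the shCHD4 label (interaction 0.92, SE 0.15, adjusted p = 0.00121). B2M, the light chain of class I molecules, had an interaction of 0.07 (adjusted p = 0.569).

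Among the 40 genes with responses of opposite sign, 29 fell under shSC and rose under the shCHD4 label and 11 did the reverse. With a threshold of 0.01 for each response in place of 0.05 the number was 13. AMIGO2, a cell adhesion protein, was at 376 and 396 at 20% O2 and 340.5 and 351 at 1% O2 under shSC, and 247 and 251 and then 349.9 and 355 under the shCHD4 label. The labels were apart at 20% O2 and overlapped at 1% O2 (interaction 0.66, SE 0.060, adjusted p = 2.44e-06). NNMT, which methylates nicotinamide, was at 43.4 and 42.7 at 20% O2 and 33.3 and 33.9 at 1% O2 under shSC, and 10.9 and 10.2 and then 15.5 and 15 under the shCHD4 label (interaction 0.86, SE 0.098, adjusted p = 3.07e-05). FOSL2, a subunit of the transcription factor AP-1, was at 227 and 216 at 20% O2 and 188 and 193 at 1% O2 under shSC, and 89.7 and 97.5 and then 121 and 124 under the shCHD4 label (interaction 0.61, SE 0.069, adjusted p = 3.23e-05). In the reverse direction, TRAF1, an adapter of the TNF receptor family and an NF-kB target, was at 284 and 268 at 20% O2 and 323 and 327 at 1% O2 under shSC, and 16.6 and 17.3 and then 11.1 and 11.6 under the shCHD4 label (interaction -0.80, SE 0.075, adjusted p = 3.72e-06). IVNS1ABP, a kelch-repeat protein, was at 184 and 182 at 20% O2 and 211 and 203 at 1% O2 under shSC, and 118 and 117 and then 96.2 and 94.5 under the shCHD4 label (interaction -0.48, SE 0.061, adjusted p = 0.000104). PGF was at 32.2 and 29.6 at 20% O2 and 40.9 and 47.1 at 1% O2 under shSC, and 17.0 and 17.5 and then 14.9 and 13.1 under the shCHD4 label. These 6 genes were chosen for the smallest interaction p among genes whose responses passed under both labels with opposite signs. Their oxygen groups did not overlap under either label, which that choice made likely in advance and which adds no support.

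The number of opposite responses depended on the libraries. It was 78 without replicate 1 of shSC at 20% O2, 12 without replicate 1 of shCHD4 at 20% O2, and 20 and 19 without replicates 1 and 2 of shCHD4 at 1% O2.

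In 25 tested AP-1 and immediate early genes, 5 interactions were positive and 2 negative (28%, against 4.36% of all tested genes), with a median of 0.04. ZFP36, tristetraprolin, which promotes decay of AU-rich mRNAs, fell under the shCHD4 label from 17.0 and 18.0 to 12.5 and 12.4 and was at 31.3 and 28.1 and then 33.5 and 32.6 under shSC (interaction -0.62, SE 0.10, adjusted p = 0.0017). KLF4, a zinc finger factor of differentiation, rose under the shCHD4 label from 44.0 and 45.1 to 63.7 and 60.7 (interaction 0.39, SE 0.064, adjusted p = 0.00149), and KLF10, an early TGF-beta response gene, rose 1.69-fold under shSC and 1.20-fold under the shCHD4 label (interaction -0.49, SE 0.075, adjusted p = 0.000711). Outside that list, TSC22D1, a leucine zipper protein, rose under the shCHD4 label from 337 and 331 to 430.0 and 449 and was at 592 and 597 and then 605 and 613 under shSC (interaction 0.36, SE 0.057, adjusted p = 0.00107). SYT15, a synaptotagmin, and SSBP2, a single-stranded DNA binding protein, were higher under the shCHD4 label at 20% O2 and fell there alone, with interactions of -0.76 (adjusted p = 0.000662) and -0.79 (adjusted p = 0.00232). AKAP12, a scaffold of protein kinase A, rose 1.60-fold under shSC, and its log2 change of 0.07 under the shCHD4 label did not pass (interaction -0.61, SE 0.086, adjusted p = 0.000324). Without the variance trend KLF4, KLF10, TSC22D1 and AKAP12 had adjusted p of 0.0524, 0.0514, 0.0579 and 0.0514, and without the filter that of SSBP2 was 0.0537. The positive count of 5 was 3 without either shCHD4 library at 1% O2, either at 20% O2 or replicate 1 of shSC at 1% O2.

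Further genes with a large interaction belong to no list. On the positive side, DIO2, which activates thyroid hormone, fell 4.01-fold under shSC and had overlapping oxygen groups under the shCHD4 label, at 4.80 and 6.20 at 20% O2 and 1.11 and 0.874 at 1% O2 under shSC, and 1.72 and 2.41 and then 1.99 and 2.16 under the shCHD4 label (interaction 2.02, SE 0.23, adjusted p = 3.48e-05). PDE7B, a cAMP phosphodiesterase, was at 13.2 and 14.7 at 20% O2 and 6.04 and 6.12 at 1% O2 under shSC, and 7.41 and 7.80 and then 8.93 and 9.05 under the shCHD4 label (interaction 1.37, SE 0.13, adjusted p = 5.41e-06). VIPR1, the receptor of vasoactive intestinal peptide, fell from 30.9 and 30.3 to 13.0 and 13.9 under shSC and was at 10.7 and 10.5 and then 11.4 and 10.2 under the shCHD4 label (interaction 1.18, SE 0.12, adjusted p = 5.56e-06). In these 3 genes both shSC libraries fell at 1% O2, and the change under the shCHD4 label did not pass (adjusted p = 0.957 for DIO2, 0.0868 for PDE7B and 0.864 for VIPR1). BDNF, the brain-derived neurotrophic factor, fell 2.09-fold under shSC and by 1.10-fold, without passing, under the shCHD4 label (interaction 0.93, SE 0.091, adjusted p = 5.56e-06). JDP2, a repressor that dimerises with AP-1 subunits, fell from 32.9 and 32.0 to 24.3 and 24.2 under shSC and rose from 3.26 and 4.24 to 7.11 and 6.72 under the shCHD4 label (interaction 1.22, SE 0.14, adjusted p = 3.29e-05). PPAP2B, a lipid phosphate phosphatase, fell 2.04-fold and 1.24-fold (interaction 0.72, SE 0.091, adjusted p = 1e-04).

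On the negative side, DHRS2, a short-chain dehydrogenase, was at 11.7 and 12.6 at 20% O2 and 41.8 and 34.7 at 1% O2 under shSC, and 7.97 and 8.90 and then 9.38 and 9.44 under the shCHD4 label. It rose 3.05-fold under shSC, and the change under the shCHD4 label of 0.15 did not pass (interaction -1.46, SE 0.13, adjusted p = 2.69e-06). DNAH11, a heavy chain of axonemal dynein, rose 6.26-fold and 2.93-fold (interaction -1.10, SE 0.18, adjusted p = 0.0013). SLC6A8, the creatine transporter, rose from 4.01 and 4.01 to 16.1 and 14.6 and from 1.27 and 1.86 to 2.92 and 3.11 (interaction -1.03, SE 0.19, adjusted p = 0.00404). HECW2, a ubiquitin ligase, rose from 9.72 and 10.0 to 18.0 and 14.9 under shSC and was at 5.58 and 6.11 and then 5.46 and 4.88 under the shCHD4 label (interaction -0.87, SE 0.15, adjusted p = 0.00237). Without the filter on low values the adjusted p was 0.0549 for DNAH11, 0.0775 for SLC6A8 and 0.0592 for HECW2.

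Oxidative stress and proliferation lists held calls in both directions. NQO1, a quinone reductase and NRF2 target, fell from 216 and 215 to 124 and 127 under shSC and from 238 and 219 to 187 and 194 under the shCHD4 label (interaction 0.52, SE 0.066, adjusted p = 0.000104). HMOX1, heme oxygenase 1 and also an NRF2 target, rose under shSC from 8.61 and 8.58 to 13.1 and 13.3 and was at 6.02 and 5.83 and then 5.80 and 5.80 under the shCHD4 label (interaction -0.62, SE 0.13, adjusted p = 0.00993), with an adjusted p of 0.0676 without the filter and 0.0636 by DESeq2. The NRF2 list had 2 positive and 2 negative calls among 24 (16.7%, against 4.36% of all tested genes). DESeq2 called 1 positive and 0 negative, and the positive count was 1 in 5 of the 8 fits without 1 library. Of 43 tested DNA replication genes 36 fell at 1% O2 under shSC (17.9% of all tested genes did) and 33 under the shCHD4 label (10.7% did). In this list 5 interactions were positive and 1 negative (14%, against 4.36% of all tested genes), with a median of 0.06. MCM5, a subunit of the replicative helicase, was at 40.1 and 38.6 at 20% O2 and 21.3 and 24.3 at 1% O2 under shSC, and 79.6 and 81.2 and then 65.9 and 65.6 under the shCHD4 label (interaction 0.49, SE 0.089, adjusted p = 0.00355) and was the only member to pass in every fit without 1 library, though at 0.0625 without the variance trend. The 5 positive calls became 13 without replicate 2 of shSC at 1% O2, 2 without replicate 1 of shCHD4 at either level, and 1 without replicate 1 of shSC at 1% O2, replicate 2 of shCHD4 at 1% O2 or replicate 2 of shCHD4 at 20% O2. SPRY2, a feedback inhibitor of growth factor signalling, fell from 122 and 125 to 110.3 and 106 under shSC and rose from 121 and 123 to 134 and 139 under the shCHD4 label (interaction 0.36, SE 0.064, adjusted p = 0.00352; adjusted p = 0.0621 without the trend). Of 21 MAPK feedback regulators 3 were positive (14.3%, against 2.21% of all tested genes). The count was 1 without replicate 2 of shCHD4 at 1% O2, replicate 1 of shCHD4 at 20% O2 or replicate 2 of shSC at 20% O2, and 6 without replicate 1 of shSC at 20% O2 or with equal library totals.

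Some lists held few or no calls. Among 62 tested cytosolic ribosomal protein genes, limma, edgeR and DESeq2 called 0, and 1 had an unadjusted p under 0.05. Among 14 NuRD subunits, which include CHD4, the 3 tools called 0 and 2 had an unadjusted p under 0.05. Limma called 0 of 29 cholesterol genes, 0 of 26 endoplasmic reticulum folding genes and 0 of 10 replication-dependent histone genes, where 4, 7 and 6 had an unadjusted p under 0.05. edgeR called 1 cholesterol gene and DESeq2 1 folding gene. Of 47 nuclear-encoded genes of the respiratory chain 1 passed (2.13%, against 4.36% of all tested genes), NDUFB3. Most fits without 1 library ended that call.

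**Figure D5:**
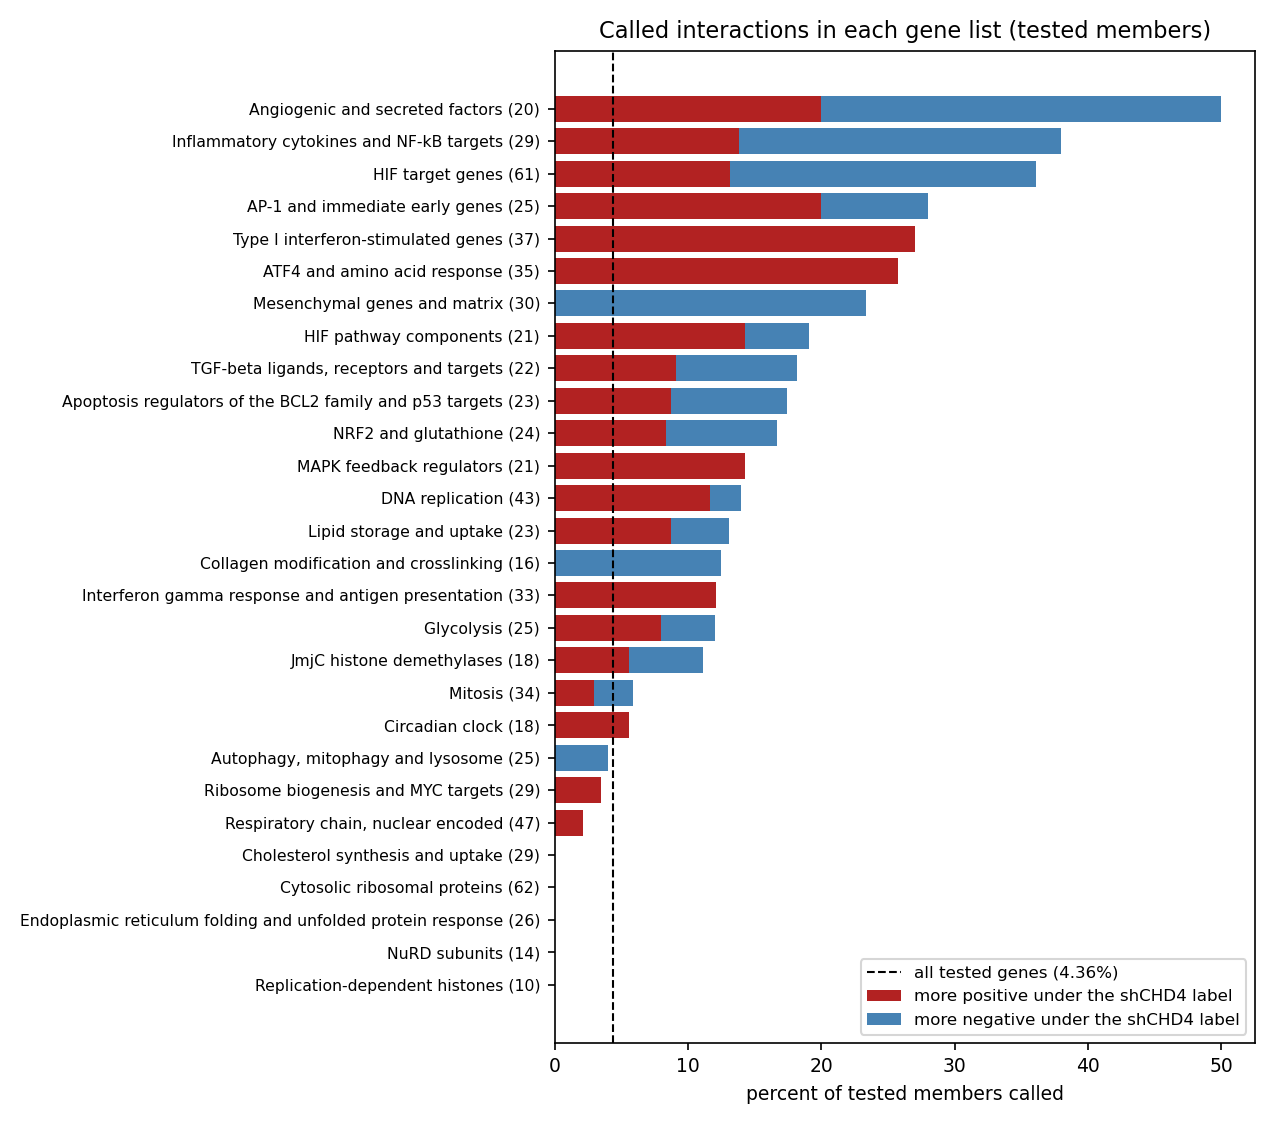
Percent of tested members of each of 28 gene lists with an interaction, positive in red and negative in blue, with the number tested in brackets and a dashed line at the 4.36% of all tested genes. The angiogenic, inflammatory and HIF target lists hold the longest bars with both colours, while the interferon and ATF4 lists are red throughout and the matrix list is blue throughout.

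The log2 scale compares folds, and a fold can be large because the level at 20% O2 was low. In differences of normalised read counts, 27 of the 551 genes went the other way, 19 of those with a positive interaction and 8 of those with a negative one. The number was 17 without replicate 1 of shCHD4 at 1% O2. ERRFI1 gained 1514 under shSC and 392 under the shCHD4 label, so its fold was larger and its gain smaller under the shCHD4 label. VEGFA gained 321 and 225, and TXNIP, an inhibitor of thioredoxin with an interaction of 0.42 (adjusted p = 0.000496, and 0.0524 without the variance trend), gained 491 and 203. DDIT4 gained more on both scales, with 106 and 177. On the negative side, S100A10, the partner of annexin A2, gained 122 and 123 despite an interaction of -0.42 (adjusted p = 0.000654, and 0.0579 without the trend). SYNPO, the actin-binding protein synaptopodin, gained 11.3 and 14.8 with an interaction of -0.65 (adjusted p = 0.000991), and TNFRSF10D, a decoy receptor of TRAIL, 29.3 and 32.7 with -0.39 (adjusted p = 0.00591, and 0.0577 without the trend).

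By quartile of mean level, from low to high, 2.69%, 3.61%, 4.65% and 6.49% of genes passed, and the median absolute interaction of those that passed was 0.73, 0.52, 0.38 and 0.33. In 524 of the 551 genes at least 1 oxygen group had a mean of 2 or more under each label, and in 27 not. Among these 27, ALOXE3, an epidermal lipoxygenase, was at 0.579 and 0.334 at 20% O2 and 2.82 and 2.76 at 1% O2 under shSC, and 1.72 and 1.48 and then 1.85 and 1.98 under the shCHD4 label (interaction -1.59, SE 0.23, adjusted p = 0.000529). ESM1, the secreted proteoglycan endocan, was at 1.70 and 2.27 at 20% O2 and 8.79 and 8.33 at 1% O2 under shSC, and 0.187 and 0.103 and then 0.240 and 0.354 under the shCHD4 label (interaction -1.57, SE 0.24, adjusted p = 0.000795), and its call ended with edgeR on the recovered reads (adjusted p = 0.42). CSGALNACT1, HLA-DMB, HOXC5 and RPLP0P2, a pseudogene whose reads may be shared with RPLP0, lost their call without single libraries, 2 for CSGALNACT1 (adjusted p = 0.0611 and 0.0795), 5 for HLA-DMB (0.0645 to 0.0961), 6 for HOXC5 (0.0566 to 0.122) and 5 for RPLP0P2 (0.0994 to 0.206).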

How the data were processed

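Polyadenylated RNA was measured in 8 libraries, 2 in each of 4 groups given by hairpin label and O2 level. The submitters' processing notes list the tools TopHat, featureCounts, edgeR, Picard 1.127, FastQC 0.11.2 and bcl2fastq 2.17, and the build hg19. Neither the gene annotation nor the strand option used for counting is stated there, so reads of overlapping antisense genes cannot be told apart.

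The deposited table bears the name FPKM. Its values were not divided by gene length: they are a signal in whole reads over 1 factor per library, as the authors deposited it. The step of a library divided 100% of its values into whole reads (tolerance 0.01 reads), which gave 24947627 to 31903585 reads per library. Names turned into dates (27) were tested and are not printed. The 2 libraries of a group differed beyond counting noise (chi-square over degrees of freedom 2.21 to 4.73), and none was merged.

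On log2(value + 0.5), limma 3.58.1 (R 4.3.3) fitted the 4 groups over the 12645 genes whose mean was at least 1, with a trended variance. Residual degrees of freedom were 4 and prior ones 13.9. Tests were two-sided, and p-values were adjusted by Benjamini-Hochberg over all these genes, with a threshold of 0.05. The interaction is a contrast of that fit, in which all groups share 1 estimate of spread. Folds understate the change of low genes. Alternatives were other pseudocounts, filters and scalings, no variance trend, a replicate block, each library left out, and edgeR 4.0.16 (563 genes called) and DESeq2 1.42.0 (386) on the recovered reads. The fit was tested on simulated data. Where 1 library of a group was left out, the lone library was assumed to vary like the others.

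The comparison, the 28 gene lists and 7 marker lists, and the tests were chosen with earlier results of these data known. Named genes are the 12 largest interactions each way among genes reaching a group mean of 2 at either O2 level under both labels, the 3 smallest p of each response class, up to 4 of each list and its highest member where most did not pass, the 3 largest each way below that level, 4 each way whose linear difference has the opposite sign, and CHD4. Promoters come from RefSeq on GRCh38.p14, matched by symbol. A gene that the rule for named genes selects is not reported here.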

Additional observations from a re-analysis of the deposited data

Results flagged for a closer look

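The response to 1% O2 differed between the labels, by the interaction test of limma, in 280 genes with a more positive and 271 with a more negative response under the shCHD4 label. The genes below are those with the largest differences and those whose responses had opposite signs, and the difference itself was tested in each.

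More positive under the shCHD4 label were DDIT4 (2.25), DIO2 (2.02), PDE7B (1.37), JDP2 (1.22), VIPR1 (1.18), VLDLR (1.13), CHAC1 (1.02) and BDNF (0.93), with values given above. NXPH4, a neurexophilin, was at 1.57 and 1.60 at 20% O2 and 1.93 and 2.59 at 1% O2 under shSC, and 0.374 and 0.690 and then 2.99 and 2.90 under the shCHD4 label (interaction 1.36, SE 0.25, adjusted p = 0.00365). DMBT1, a secreted scavenger receptor protein, fell from 14.2 and 14.0 to 9.44 and 9.24 under shSC and rose from 2.66 and 2.21 to 3.98 and 4.49 under the shCHD4 label (interaction 1.27, SE 0.16, adjusted p = 7.34e-05). DACH1, a transcription factor, fell from 5.75 and 6.72 to 3.75 and 4.13 under shSC and rose from 5.39 and 7.48 to 8.45 and 8.80 under the shCHD4 label (interaction 1.01, SE 0.19, adjusted p = 0.00392). Without the filter on low values the adjusted p was 0.0589 for NXPH4 and 0.0876 for DACH1, and without the variance trend it was 0.0621 for DACH1. HIF1A-AS2, an antisense transcript at the HIF1A gene, was at 2.15 and 3.38 at 20% O2 and 4.40 and 2.86 at 1% O2 under shSC, and 1.20 and 1.86 and then 6.97 and 4.17 under the shCHD4 label (interaction 1.22, SE 0.32, adjusted p = 0.0369). The shSC oxygen groups overlapped, and the call ended without replicate 2 of shSC at 20% O2 (adjusted p = 0.137) or at 1% O2 (0.143), and without replicate 1 of shCHD4 at 20% O2 (0.142) or at 1% O2 (0.195). It ended too without the filter (0.234), with quantile normalization (0.0581) and without the variance trend (0.221). HIF1A lies on the other strand, and with the strand setting unknown its reads and those of HIF1A-AS2 cannot be told apart.

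More negative were CA9 (-2.16), DHRS2 (-1.46), MMP1 (-1.20), DNAH11 (-1.10), SLC6A8 (-1.03), CDKN1A (-0.93), HECW2 (-0.87), EGLN3 (-0.81) and ICAM1 (-0.80). The place of CA9 rests on few reads, and its call ended with edgeR (-0.88, adjusted p = 0.665) and DESeq2 (-0.84, adjusted p = 0.736). As a ratio of group means with no added constant it was -0.90, against -1.50 for DHRS2 and -1.21 for MMP1. SPNS2, a sphingosine-1-phosphate transporter, rose from 7.78 and 7.17 to 14.9 and 17.0 under shSC and was at 3.07 and 2.35 and then 2.68 and 3.32 under the shCHD4 label (interaction -0.91, SE 0.18, adjusted p = 0.00717; adjusted p = 0.107 without the filter and 0.0694 without the trend). PTPRB, a receptor tyrosine phosphatase, rose from 2.77 and 2.08 to 6.65 and 7.09 and from 2.99 and 2.69 to 4.29 and 3.78 (interaction -0.90, SE 0.19, adjusted p = 0.0103), and its call ended without replicate 2 of shCHD4 at 1% O2 (0.0641) and without the variance trend (0.0524). GPR37, an orphan receptor of the nervous system, was at 3.27 and 2.86 and then 3.61 and 3.49 under shSC and fell from 4.19 and 4.52 to 2.20 and 2.76 under the shCHD4 label (interaction -0.90, SE 0.19, adjusted p = 0.00982), and its call ended without replicate 1 of shCHD4 at 1% O2 (0.064). Without the filter both calls ended too (0.108 for PTPRB and 0.0909 for GPR37).

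Opposite responses were measured in AMIGO2 (0.66), NNMT (0.86), FOSL2 (0.61), TRAF1 (-0.80), IVNS1ABP (-0.48) and PGF (-0.80).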

How the results depend on the processing

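The 551 calls (280 positive, 271 negative) stayed within 1.5 times under both other pseudocounts, a mean of at least 4, TMM scaling, quantile normalization (501) and edgeR (563). Without the filter on low values 155 passed (76 positive, 79 negative) and without the variance trend 155 (91 and 64). Counts within lists fell too. Over all the alternatives the lowest were 5 positive (of 8) and 4 negative (of 14) HIF targets and 4 positive ATF4 members (of 9). For type I interferon-stimulated genes the lowest was 3 positive (of 10), and for matrix genes 2 negative (of 7). DESeq2 called 181 positive genes, and gave no adjusted p for 36 of the 551. Scaled to the same library total, 67.4% of 583 calls were positive against 50.8%. Leaving out 1 library at a time gave 245 to 994 calls, 129 to 568 positive and 113 to 426 negative. The cause was not tested.

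Opposite responses, 40 genes, were 18 without the filter, 25 without the trend, 13 at a threshold of 0.01 and 12 to 78 with 1 library left out. Interactions with a linear difference of the other sign, 27, were 12, 8 and 17 to 36 under the first, second and last of these. IL8 turned from -0.20 (adjusted p = 0.127) to 0.47 (adjusted p = 0.000467) with quantile normalization, the only named gene to change sign with a call in either fit; 8 genes whose interaction passed in no fit also changed sign, each between -0.17 and 0.12. The interaction of CHD4 ran from 0.039 to 0.12 and did not pass in any of them.

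Same-numbered libraries deviated little together (r = -0.121 to 0.124 over 6 pairs of groups, across genes). Between the labels r was 0.124 at 20% O2 and 0.0703 at 1% O2, and across O2 levels it was -0.121 to 0.00161. Whether the numbers mark a pairing cannot be told from values of this size. With a replicate block 536 genes passed, against 551. The 2 libraries per group limit each estimate, and depth limits genes of low counts.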

Other observations

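Of 21 tested components of the HIF pathway, 3 had a positive interaction and 1 a negative one (19%, against 4.36% of all tested genes). The 3 became 1 without replicate 1 of shCHD4 at 1% O2 and 0 without the variance trend. The negative call ended without the filter or the trend, and 2 were negative without replicate 2 of shSC at 20% O2. HIF1A, which encodes the HIF-1 alpha subunit and was named after its values were seen, was at 559 and 618 at 20% O2 and 246 and 225 at 1% O2 under shSC, and 350.5 and 369 and then 117 and 127 under the shCHD4 label. It fell 2.50-fold and 2.94-fold, and its interaction of -0.23 did not pass (adjusted p = 0.111), except without replicate 2 of shSC at 20% O2 (adjusted p = 0.0372). EPAS1, which encodes HIF-2 alpha and was chosen in the same way, fell 1.34-fold and 1.46-fold (interaction -0.12, adjusted p = 0.382). ARNT2, a paralog of the HIF partner ARNT, fell under shSC from 25.3 and 22.8 to 15.3 and 17.8 and was at 10.3 and 10.9 and then 11.2 and 10.9 under the shCHD4 label (interaction 0.58, SE 0.13, adjusted p = 0.0114), and its call ended without replicate 1 of shSC at 1% O2 (0.0675) or replicate 1 of shCHD4 at 1% O2 (0.0523), without the filter (0.0931) and without the variance trend (0.0716).

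UBE2C, the ubiquitin-conjugating enzyme of the anaphase-promoting complex, was at 219 and 201 at 20% O2 and 254 and 251 at 1% O2 under shSC, and 236 and 230.3 and then 216 and 217 under the shCHD4 label (interaction -0.37, SE 0.065, adjusted p = 0.00232; adjusted p = 0.0754 without the variance trend). It was the only mitosis gene of 34 to pass in every fit without 1 library. Among lipid genes, ANGPTL4, an inhibitor of lipoprotein lipase and a HIF target, was at 6.54 and 5.09 at 20% O2 and 46.9 and 54.1 at 1% O2 under shSC, and 4.42 and 3.69 and then 21.3 and 22.7 under the shCHD4 label (interaction -0.71, SE 0.16, adjusted p = 0.0123). The call of ANGPTL4 ended without replicate 2 of shSC at 1% O2 (0.067), replicate 1 of shCHD4 at 20% O2 (0.0581) or replicate 1 of shCHD4 at 1% O2 (0.0634), without the filter (0.134) and without the variance trend (0.12).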
